A study of Homo sapiens with 4 samples.

Results

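The intervals described here lie in 6 stretches of human chromosome 19 that are rich in KRAB zinc finger genes, and mark messenger RNA enriched in m6A, an adenosine methylated at the N6 position. The members are the deposited m6A intervals whose centre lies, in hg19, between 11.7 and 12.6 Mb (window 1), 19.7 and 24.4 Mb (window 2), 36.6 and 38.4 Mb (window 3), 44.3 and 45 Mb (window 4), 52.3 and 54.1 Mb (window 5) or 56.5 and 59.1 Mb (window 6), on either strand. The windows span 12.5 Mb in all. They held 122 of the 11038 intervals of one condition and 132 of the 13691 intervals of the other. The rest of chromosome 19, used for comparison, held 539 and 612.

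The cells were 16-HBE, an established human bronchial epithelial line, and all cells received cigarette smoke extract (CSE) at 5% during 24 h. In the CSE condition the labels give the genotype as WT, and in the other (here "knockdown") Mettl3, which encodes the catalytic subunit of the m6A writer complex, was reduced by siRNA. No condition without smoke extract is among the 4 samples, and a control siRNA is not named in the titles, so reduced METTL3 and siRNA transfection cannot be told apart. Whether METTL3 was lower was not checked, since interval lists carry no expression level. Each condition has an m6A immunoprecipitation and an input library, and 1 list of intervals per condition was analysed, although the series' design text gives 3 replicates. There is thus no replicate spread, no test between conditions and no p-value: ranges in brackets are 95% intervals of counting error only, and they treat intervals as independent.

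KRAB zinc finger proteins form a large family of DNA-binding repressors. A tandem array of C2H2 zinc fingers reads the DNA sequence, often in transposable elements, and the KRAB domain recruits the corepressor TRIM28, which in turn brings in the histone methyltransferase SETDB1. The genes arose by repeated local duplication, so they stand side by side in clusters, and many carry the whole finger array in a single long last exon. In messenger RNA, m6A is known to be common in long exons and around stop codons.

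The intervals in the windows were long. Their median width was 2019 nt (1685 to 2180) in CSE and 2082 nt (1739 to 2219) with knockdown, against 299 nt (263 to 346) and 267 nt (224 to 313) in the rest of chromosome 19. The quartiles in the windows were 624 and 2617 nt in CSE and 492 and 2660 nt with knockdown. The narrowest member had 44 nt in both lists, and the widest had 4869 nt in CSE and 4513 nt with knockdown. Intervals over 300 nt, called wide here, made up 101 of 122 members in CSE (82.8%) and 107 of 132 with knockdown (81.1%). In the rest of the chromosome they made up 49.9% and 46.9%, a difference of 32.9 percentage points in CSE (24.1 to 39.9) and 34.2 points with knockdown (25.7 to 41.1). Above 2000 nt, 62 CSE members (50.8%) and 70 knockdown members (53.0%) were that wide, beside 10.8% and 10.1% in the rest of chromosome 19 and 9.15% and 7.70% on all other chromosomes. The plot of widths shows both lists following one curve inside the windows and another outside them.

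**Figure D1:**
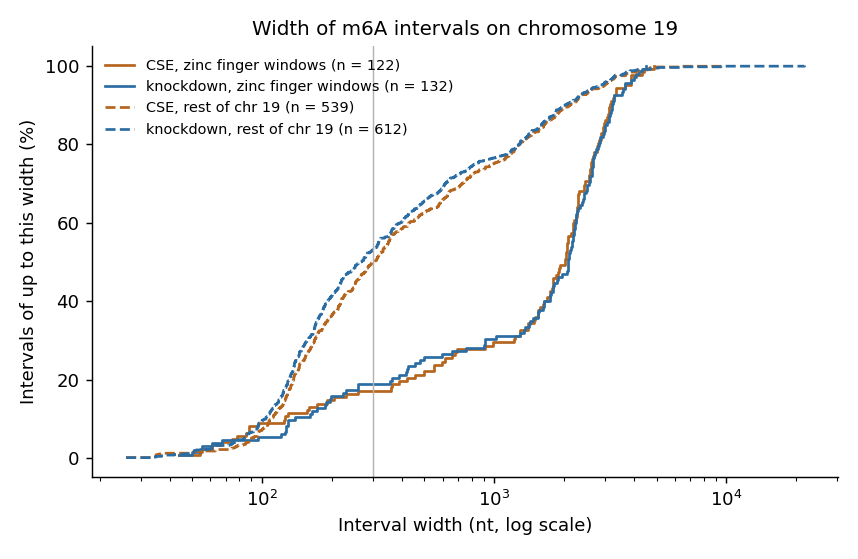
Cumulative share of intervals (%) by width (nt, log scale) on chromosome 19, for the zinc finger windows (solid) and the rest of the chromosome (dashed) in the CSE list (brown) and the knockdown list (blue); the grey line marks 300 nt. Medians in the windows are 2019 and 2082 nt, against 299 and 267 nt outside.

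Every one of the 6 windows shared this feature. In the CSE list the median width per window ran from 1496 nt in window 2 to 2292 nt in window 1, and with knockdown from 1796 nt in window 6 to 2398 nt in window 2. All 8 CSE and all 12 knockdown members of window 1, and all 17 CSE members of window 4, were wide. Window 5 held the most short members, 14 of 39 in CSE and 15 of 43 with knockdown.

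The lists give no gene names and no annotation of hg19 was used, so no interval is assigned to a gene, and whether each lies in a zinc finger gene was not checked. As a frame for these widths, GENCODE release 29, which belongs to another build, was read for gene structure only. It lists 263 protein-coding genes of chromosome 19 with a zinc finger symbol (ZNF, ZFP, ZSCAN, ZIM, ZIK or ZKSCAN and a number) and 1164 others. In the longest transcript of each zinc finger gene the last exon had a median length of 3073 nt, of which 1456 nt (quartiles 1111 and 1718) were coding. The last exon held a median of 86.6% of the coding sequence. In the other genes it measured 748 nt and held 15.2% of the coding sequence, 159 nt. Zinc finger genes had a median of 4 exons, and the median of their typical internal exon was 110 nt. The median member of 2019 nt was thus longer than the coding part of a typical zinc finger last exon and shorter than the whole exon. The genes of that list were not matched to the windows. Interval widths are lengths on the genome, and whether a member lies in a last exon or spans an intron was not checked.

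The number of intervals in the windows differed little between the lists. The knockdown list held 132 and the CSE list 122, a ratio of 1.08 (0.846 to 1.38), and the covered length was 241 kb against 220 kb. In the rest of chromosome 19 the ratio was 1.14 (1.01 to 1.27), and on all other chromosomes 1.25 (1.22 to 1.28). The ratio in the windows divided by that in the rest of the chromosome was 0.953 (0.726 to 1.25), and divided by that on the other chromosomes 0.867 (0.677 to 1.11). With so few intervals, no difference in the gain was detectable. Short members numbered 25 with knockdown and 21 in CSE, wide ones 107 and 101, ratios of 1.19 (0.672 to 2.11) and 1.06 (0.808 to 1.39). In the rest of chromosome 19 the ratios for short and wide intervals were 1.20 and 1.07, and on the other chromosomes 1.43 and 1.05.

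Most members were listed in both conditions. Overlap means here that the other list covers 1 bp or more of the interval on the same strand. In CSE 102 of 122 members overlapped, 83.6% (76.0 to 89.1), and with knockdown 102 of 132, 77.3% (69.4 to 83.6). This left 20 CSE-only members, 16.4%, where the background was 19.9% of the whole CSE list and 23.6% in the rest of chromosome 19. It also left 30 knockdown-only members, 22.7%, against 35.5% of the whole knockdown list and 32.4% in the rest of chromosome 19. The overlapping share in the windows exceeded that in the rest of the chromosome by 7.17 points in CSE (-1.13 to 13.9), an interval that includes 0, and by 9.63 points with knockdown (0.986 to 17.0).

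Width split the members. Of the wide CSE members 90 of 101 overlapped (89.1%), against 75.5% of wide intervals in the rest of the chromosome, a difference of 13.6 points (4.71 to 20.9). Of the short CSE members 12 of 21 overlapped (57.1%), against 77.4%, a difference in the opposite direction of -20.3 points (-41.4 to -1.11). With knockdown the wide members again overlapped more often than wide intervals elsewhere on the chromosome, 84.1% against 71.4%, by 12.7 points (3.22 to 20.6). For the short ones, 12 of 25 against 64.3%, the difference of -16.3 points had an interval from -35.0 to 2.95. The wide class is not matched for width, since very wide intervals were more frequent in the windows. Over 2000 nt the overlapping CSE share was 95.2% (86.7 to 98.3) against 87.9% (77.1 to 94.0) in the rest of the chromosome. From 1000 to 2000 nt it was 83.3% against 78.9%. With knockdown the shares were 85.7% against 79.0% and 90.9% against 74.4%. In each of these classes the 95% intervals overlapped. Of all 102 overlapping CSE members, 90 were thus wide and 12 short.

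The windows differed in density and in how their members divided. Window 4 was the densest, with 17 members in each list over 0.7 Mb, 24.3 per Mb, of which 16 overlapped. Window 2, the longest at 4.7 Mb, held 8 in CSE and 10 with knockdown, 1.70 and 2.13 per Mb. In window 1 all 8 CSE members overlapped a knockdown interval, and 4 more were listed with knockdown alone. Window 3 was the one with fewer members after knockdown, 14 against 16, with 4 CSE-only and 2 knockdown-only members. Window 5 held 39 and 43, and window 6 held 34 and 36. Strands were uneven within some windows: 13 of 17 members of window 4 lay on the plus strand in both lists, and 25 of 39 CSE members of window 5 lay on the minus strand. Over all windows 63 of 122 CSE and 67 of 132 knockdown members were on the plus strand.

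**Figure D2:**
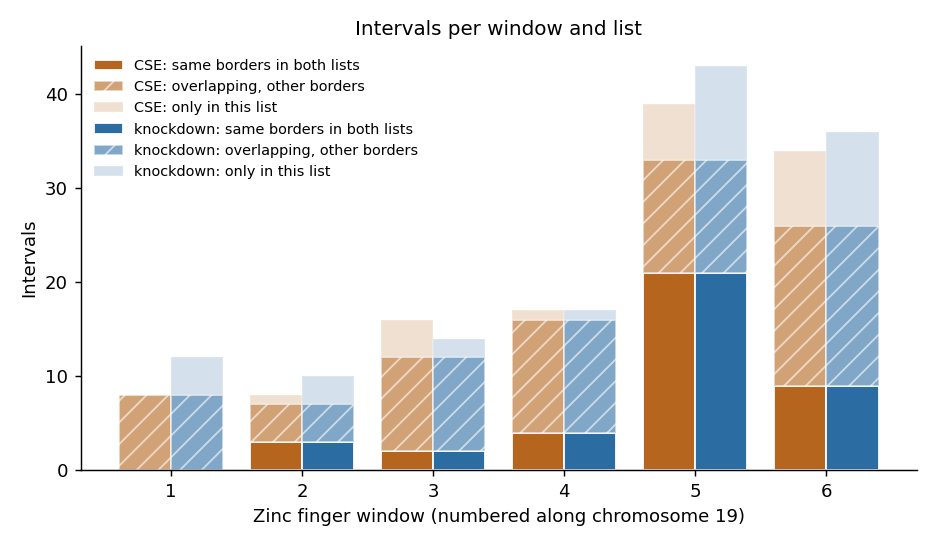
Number of intervals in each zinc finger window (x axis, numbered along the chromosome) in the CSE list (brown) and the knockdown list (blue), divided into those with the same borders in both lists (solid), those overlapping with other borders (hatched) and those only in that list (pale). Windows 5 and 6 hold the most, and all overlapping members of window 1 have other borders in the other list.

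Borders set the windows apart. Outside them, an interval listed in both conditions mostly had the same start and end in both: of overlapping CSE intervals, 11.7% in the rest of chromosome 19 and 17.6% on the other chromosomes had other borders in the knockdown list. In the whole list, windows included, it was 17.9%. In the windows 63 of 102 did, 61.8% (52.1 to 70.6), which is 50.1 points above the rest of the chromosome (39.8 to 59.4). Window 5 was lowest, with 12 of 33. The counts were 8 of 8 in window 1, 4 of 7 in window 2 and 10 of 12 in window 3. Windows 4 and 6 had 12 of 16 and 17 of 26. Many border differences were small. With those of up to 50 nt counted as none, the share was 39.2% in the windows and 7.28% in the rest of the chromosome. These were 31.9 points apart (22.5 to 41.9), and on the other chromosomes the share was 12.4%. Other borders were more frequent among wide intervals in all 3 sets, and the windows also had the highest share among wide intervals taken alone. Among overlapping CSE intervals over 300 nt it was 61 of 90 in the windows (67.8%), 21.2% in the rest of chromosome 19 and 35.6% on the other chromosomes, differences of 46.6 points (34.7 to 56.7) and 32.2 points (21.9 to 41.1). With the 50 nt tolerance these were 29.7 points (18.4 to 40.8) and 18.6 points (8.66 to 28.96). Among those over 2000 nt it was 45 of 59 (76.3%), 13 of 51 (25.5%) and 50.3%, differences of 50.8 points (32.6 to 64.2) and 26.0 points (13.3 to 35.7). These shares by width pool the 6 windows. In window 5, which held the most members, those over 2000 nt divided evenly between other and identical borders. In this width class window 5 was thus above the rest of chromosome 19 but not set apart from the other chromosomes. The share was similar on both sides of the median score: among wide overlapping CSE members with a score up to the list's median the share was 68.3%, and above the median 67.3%. Beside these stood 27.0% and 18.6% in the rest of chromosome 19, and 44.4% and 31.1% on the other chromosomes.

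**Figure D3:**
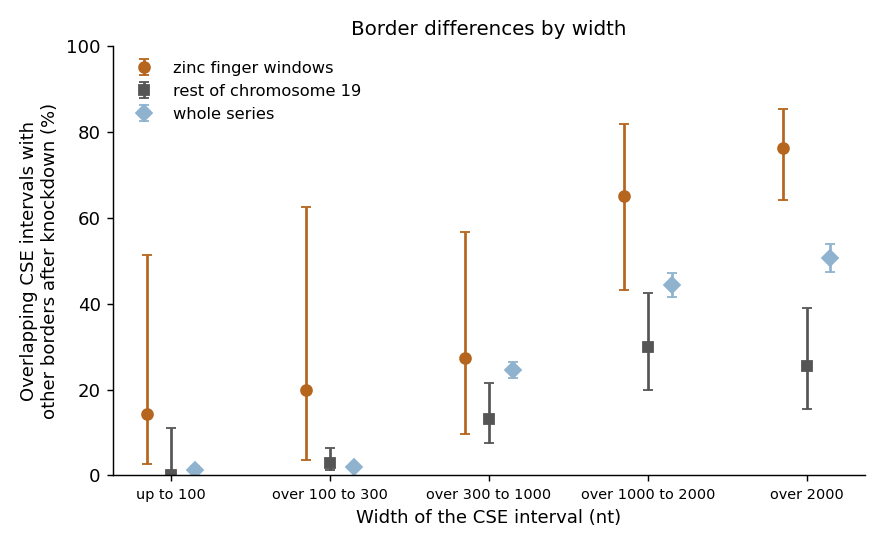
Share (%) of overlapping CSE intervals whose borders differ from those of the overlapping knockdown interval, by width of the CSE interval (nt), in the zinc finger windows (circles), the rest of chromosome 19 (squares) and the whole series (diamonds); bars are 95% Wilson intervals. Above 2000 nt the windows reach 76.3%, against 25.5% in the rest of the chromosome and 50.6% in the whole series.

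The border that differed was the downstream one. Read in the direction of the strand, 55 of the 63 pairs with other borders had the same upstream border to the base and another downstream border, 87.3% (76.9 to 93.4). This held on both strands, for 30 of 36 pairs on the plus strand and 25 of 27 on the minus strand, so it follows the direction of the strand and not the direction of the coordinates. A pair with the same downstream and another upstream border occurred 3 times, and 5 pairs differed at both ends. Counting the 39 pairs with identical borders, 94 of 102 pairs shared the upstream border (92.2%) and 42 the downstream one (41.2%). In the rest of chromosome 19, 364 of 412 pairs had identical borders, 33 shared the upstream one alone and 12 the downstream one alone. On the other chromosomes these were 6855 of 8324, 1115 and 260. Over all pairs, a shared upstream border was thus at least as frequent outside the windows, and a shared downstream border more frequent. A common upstream border was the usual form elsewhere too, in 33 of 48 pairs with other borders in the rest of chromosome 19 (68.8%) and in 75.9% on the other chromosomes. In this share of the pairs with other borders, the windows exceeded the rest of the chromosome by 18.6 points (3.19 to 33.9).

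**Figure D4:**
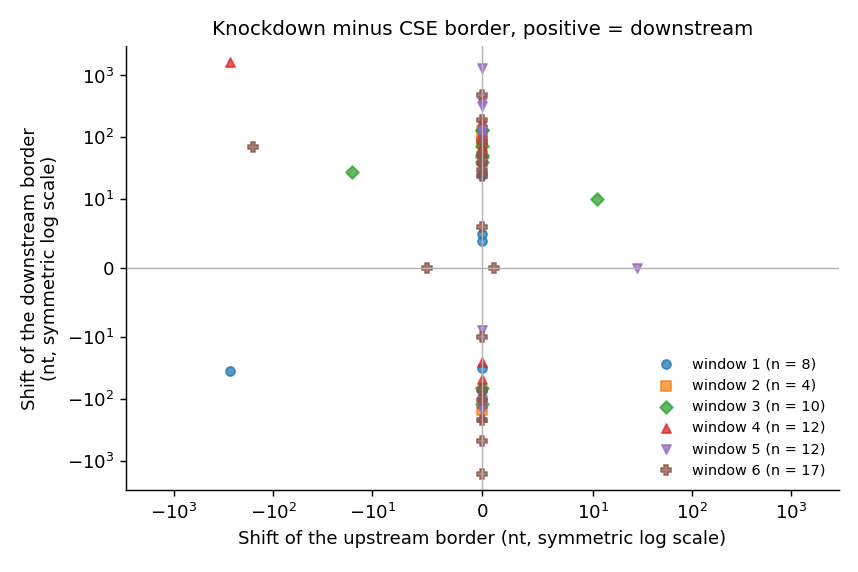
Shift of the upstream border (x axis) and the downstream border (y axis) from the CSE to the knockdown interval, in nt on symmetric log scales, for the 63 pairs in the windows with other borders; positive values lie further downstream, and markers show the window. Most points, 55 of 63, stand on the vertical line of no upstream shift.

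These downstream shifts were small against the width of the interval. In the 55 pairs they had a median size of 84 nt (quartiles 41 and 131.5), or 3.52% of the CSE width, and in 31 pairs they were at most 100 nt. In the 33 pairs of the rest of the chromosome the median size was 133 nt (quartiles 32 and 253), or 7.91% of the width. The quartiles in the windows lie inside these. CSE intervals with other borders were also wider in the windows, with a median of 2250 nt against 1231.5 nt, which lowers the percentage. The knockdown interval reached further downstream in 35 of the 55 pairs and stopped earlier in 20, a share of 63.6% (50.4 to 75.1). The same share, 21 of 33, was found in the rest of the chromosome, and 68.9% on the other chromosomes.

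A few pairs differed by more, and these are named because of their size, after it was seen. In window 6 a plus-strand interval starting at 58264659 (hg19, counting from 1, as below) ended at 58269527 in CSE and at 58267861 with knockdown, 1666 nt earlier, with widths of 4869 and 3203 nt. It scored 103 in CSE and 875 with knockdown. The score is the authors' own value per interval, on a scale that is not stated, and scores of the 2 lists are given side by side without reading a change in m6A. In window 5 the plus-strand interval starting at 54079951 ended 1311 nt further downstream with knockdown, at 54083523 instead of 54082212, and scored 1672 in CSE and 867 with knockdown. In window 4 both ends differed on the plus strand: 44678969 to 44680253 in CSE became 44678697 to 44681891 with knockdown, from 1285 to 3195 nt. At the other extreme, in window 6 the 2812 nt CSE interval from 58966368 to 58969179 differed from its knockdown counterpart by 1 nt at the start, with scores of 415 and 2939.

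The highest scores in the windows belonged to intervals listed in both conditions. All of the 8 highest-scoring members of each list overlapped the other list. This is not particular to the windows. In the whole lists 80.1% of CSE and 64.5% of knockdown intervals overlapped. Of those in 1 list only, 75.5% in CSE and 81.2% with knockdown lay at or under the median score. The highest in both, 3115 nt wide, lay in window 3 on the plus strand (36726561 to 36729675), with identical borders and a score of 2483 in CSE and 3100 with knockdown. The value 3100 is shared by 1113 knockdown and 620 CSE intervals of the whole lists, so it gives no order among them, and this was the one member to have it. The second in CSE was 1791 nt wide, in window 6 on the plus strand (58805464 to 58807254), with a score of 2198 and the same borders with knockdown, where it scored 1228. The next were 3190 nt and 2301 nt in window 6 (58048572 to 58051761 and 57722722 to 57725022), with scores of 1944 and 1855. Both kept their upstream border with knockdown and ended further downstream, by 483 and 188 nt. The sixth was an exception in size, just 55 nt wide, in window 5 on the plus strand (53935227 to 53935281), with a score of 1616. With knockdown the second rank was taken by 3649 nt on the minus strand of window 5 (53569867 to 53573515), with a score of 2994, identical borders in CSE and a score of 1256 there. In the other windows the highest overlapping CSE members were 2942 nt in window 1 (plus strand, 11942183 to 11945124; score 476), 388 nt in window 2 (minus strand, 19744612 to 19744999; score 556) and 2982 nt in window 4 (minus strand, 44931736 to 44934717; score 991).

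As a set, the members did not stand out by score. Their median rank was the 51.2 percentile of the CSE list (40.8 to 57.3) and also the 51.2 percentile of the knockdown list (45.6 to 59.0), against 55.7 and 55.5 for the rest of chromosome 19. The median score was 233 in CSE and 294 with knockdown.

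The 20 CSE-only members had a median score of 121 (79.0 to 425). At or under the median of the whole list were 12 of them, 60.0% (38.7 to 78.1), beside 67.7% of CSE-only intervals in the rest of chromosome 19 and 75.5% in the whole series. Their median width was 454.5 nt (129 to 1730), a range that includes the 332 nt of CSE-only intervals in the rest of the chromosome, and 11 were wide. The highest scorer, 359 nt wide, lay in window 6 on the minus strand (59009700 to 59010058), with a score of 1053. It stood 801 nt from the highest-scoring knockdown-only member, 199 nt on the same strand (59010859 to 59011057) with a score of 1097, and a second CSE-only interval of 125 nt followed at 59012653 to 59012777, with a score of 713. These 3 intervals made up one neighbourhood, a run of intervals on 1 strand with gaps of up to 10 kb, in which no interval was common to both lists. The second highest CSE-only member was 1402 nt on the plus strand of window 6 (58723527 to 58724928), with a score of 803 and the nearest knockdown interval of its strand 80536 nt away. The others among the first 10 were 191 nt and 129 nt in window 5 (53193696 and 53577393, minus strand), 1730 nt, 680 nt and 3352 nt in window 6 (56598732 and 56662571, minus strand, and 57802067, plus strand) and 689 nt and 1846 nt in window 3 (36605888, plus strand, and 37129100, minus strand). Their scores ran from 133 to 660. The 1846 nt interval was 107553 nt from any listed knockdown interval of its strand. Interval names carry a running number, and 18 numbers between the flanking knockdown intervals were not listed. Flanking intervals were taken from either strand, so they bound another stretch than that distance. Whether an unlisted call lies there was not tested.

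The 30 knockdown-only members had a median score of 115, and 17 were wide. At or under the median score of the whole list were 20 of them, 66.7% (48.8 to 80.8), beside 72.2% of knockdown-only intervals in the rest of the chromosome and 81.2% in the whole series. Their median width was 589 nt (197 to 2072). This range includes the 207.5 nt (177 to 275) of knockdown-only intervals in the rest of chromosome 19. After the 199 nt interval named above came 754 nt on the plus strand of window 6 (57875924 to 57876677; score 544), 4664 nt from a CSE interval. Then followed 911 nt on the minus strand of window 5 (53578310 to 53579220; score 500), 789 nt from the CSE-only interval of 129 nt, and 4093 nt on the plus strand of window 6 (58849620 to 58853712; score 499). One member of 2591 nt in window 2, on the plus strand (24309056 to 24311646; score 418), stood apart: the nearest CSE interval of its strand was 2941081 nt away. Between the flanking CSE intervals of either strand, another stretch than that distance, 19 numbers were not listed. The other 5 of the first 10 were 223 nt, 3554 nt and 2278 nt in window 5 (53073917, plus strand, and 52535140 and 53268748, minus strand), 2072 nt in window 1 (12242729, minus strand) and 1416 nt in window 3 (36673220, minus strand), with scores from 290 to 386. All 4 knockdown-only members of window 1 were wide, from 424 to 2193 nt.

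Most neighbourhoods in the windows held a single interval per list. Joining intervals on 1 strand with gaps of up to 10 kb gave 122 neighbourhoods that lay inside the windows, of which 106 had a CSE interval and 110 a knockdown interval. In CSE 92 of the 106 had just 1 (86.8%, 79.0 to 92.0), and with knockdown 94 of 110 (85.5%, 77.7 to 90.8). In the rest of the chromosome the shares were 72.6% (67.8 to 77.0) and 70.2% (65.5 to 74.6). A shared interval was present in 93 of the 122 (76.2%, 67.9 to 82.9), CSE-only intervals alone in 12 (9.84%), knockdown-only intervals alone in 16 (13.1%), and both kinds without a shared one in 1. Of the 462 neighbourhoods in the rest of the chromosome, 59.5% (55.0 to 63.9) held a shared interval, 16.5% CSE-only and 22.5% knockdown-only intervals alone. The count was higher with knockdown in 25 (20.5%), lower in 17 (13.9%) and equal in 80 (65.6%, 56.8 to 73.4). In the rest of the chromosome it was higher in 32.9%, lower in 20.8% and equal in 46.3% (41.8 to 50.9). These shares are not matched for the number or width of intervals per neighbourhood. A neighbourhood with more intervals has more ways to differ in count.

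The neighbourhood with the most intervals, 4 in each list, lay on the minus strand of window 2 (19734466 to 19754476). Its intervals were short for the windows, from 126 to 913 nt. Intervals of 913, 388 and 126 nt had the same borders in both lists, one of 157 nt was CSE-only and one of 197 nt knockdown-only. The next, on the minus strand of window 5 (52511214 to 52538693), held 2 intervals in CSE and 5 with knockdown. There, the 2284 nt CSE interval (score 1457) and its 2169 nt knockdown counterpart (score 1835) shared the upstream border at 52520612, and a 231 nt interval had identical borders. With knockdown 121, 186 and 3554 nt were added, with scores of 60.1, 59.6 and 334. Another, on the minus strand of window 5 (52393529 to 52408305), held 2 intervals in CSE and 3 with knockdown, the additional one 139 nt wide. The remaining 2 of the first 5, both in window 6, held 2 wide intervals per list, all shared: 3293 and 1739 nt with identical borders on the minus strand (58865723 to 58880728), and 2180 and 2609 nt in CSE on the plus strand (57764441 to 57773939), where the knockdown intervals measured 2219 and 2836 nt.

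The members made up 38.0% (32.9 to 43.4) of the running numbers spanned by them in the CSE names, against 29.4% (27.4 to 31.5) in the rest of chromosome 19. With knockdown the shares were 39.3% (34.2 to 44.6) and 37.0% (34.7 to 39.3). Each window's numbers were counted from its first to its last listed member, and unlisted ones beyond these fell to the rest. This raises the share in the windows, so the excess is partly built in. What the unlisted numbers stand for is not stated in these lists.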

How the data were processed

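m6A MeRIP-seq intervals of 2 conditions of the 16-HBE line were analysed. Poly(A) RNA was immunoprecipitated with an m6A antibody and sequenced beside input with a directional kit, per the labels' protocols. The submitters' processing notes name HISAT2 2.0.4 and the build hg19. The deposited interval names start with MACS; the version, the settings and the way replicates were combined are not stated, and read depth was not used. The deposited score, the authors' own value per interval, has no stated scale and was used to rank within a list.

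Members, overlaps and borders were computed with Python 3.11.15, pandas 2.3.3 and scipy 1.17.1, and the overlap code was tested on simulated data. Shares carry Wilson and differences Newcombe intervals, medians exact order-statistic intervals, all at 95%. The ratio of 2 counts has Wilson-based limits, and a ratio of ratios a log interval. The named items were, per list, the 8 highest-scoring members and the 10 highest-scoring condition-specific ones, per window the highest-scoring overlapping CSE member, and the 5 neighbourhoods with the most intervals, ties broken by width and position; the text prints the leading ones. Genes, TRIM28 included, the list of KRAB cofactor genes and sequences were not analysed here, since no genome or annotation of hg19 was used. Members and lists were chosen with earlier results of these data known.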

Additional observations from a re-analysis of the deposited data

How the results depend on the processing

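Of 126 values of 12 results under alternatives, 113 stayed within the 95% interval of the reported value, 13 moved and 0 reversed. A reversal could be scored only for the differences from the rest of the chromosome in borders and in wide share. Membership by any overlap with a window changed no value, and leaving out a window keeps most of the same intervals. The tally is therefore no independent check. The measures of borders and the difference in wide share were added after seeing the data. Leaving out each window in turn gave 72 values, of which 2 moved: without window 5 the share of overlapping CSE members with other borders was 73.9%, and the excess of wide intervals over the rest of the chromosome 41.7 points. Counting border differences of up to 50 nt as none gave 39.2% for the first of these over all windows, and 29.7 points for the excess over the rest of the chromosome among wide intervals. With each list cut to its 50% of intervals with the highest scores, the overlapping share was 70.3% in CSE and 65.2% with knockdown. The median knockdown width was then 2287 nt. Of pairs with other borders, 96.4% had a common upstream border, beside 87.3% as reported. Both lists are trimmed there, so fewer intervals can overlap. With identical borders required, the overlapping shares were 32.0% and 29.5%. Among intervals of up to 300 nt they were 57.1% and 48.0%, and 84.1% among wide knockdown intervals. The alternative by annotated zinc finger genes was not run. No paired analysis was possible because each condition has 1 list. Counting error is the limit for the short members, 21 in CSE and 25 with knockdown.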
